A study of Mus musculus with 9 samples.

Results

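Transcript levels of 7 genes of the RAF-MEK-ERK cascade (Braf, Araf, Map2k1, Map2k2, Mapk3, Ksr1 and Hras) were examined in mouse hearts. They were taken by gene name from 41710 genes in the deposited tables, where they are listed with 50 of 127558 transcripts, and were read per transcript and as sums per gene. The 9 heart libraries fall into 3 groups of 3: Tg-RKIP mice, mice labelled Tg-GRK2 and FVB mice without a transgene. All mice were male, of the FVB/N strain and 8 months old, and each library held between 25458108 and 33447654 reads of 50 bases. Tg-RKIP mice carry RKIP (the product of Pebp1) as a transgene that the alpha-MHC promoter drives in the myocardium; the promoter of the GRK2 transgene is not given in the sources used here. RKIP is an inhibitor of this cascade and of GRK2, and the comparison with FVB asks how the components of the pathway that RKIP acts on stand in hearts with more RKIP. The authors describe dilated cardiomyopathy, fibrosis and symptoms of heart failure in Tg-RKIP mice. More RKIP and a failing heart therefore cannot be told apart in this comparison.

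RAS proteins at the plasma membrane bind GTP after receptor stimulation and recruit RAF kinases, which phosphorylate the MEK kinases, which in turn phosphorylate the ERK kinases. The scaffold KSR1 holds RAF, MEK and ERK together. In the heart the cascade is known for its part in growth and survival of cardiac myocytes, and most of its control acts on the proteins, by phosphorylation and binding, which transcript levels do not show.

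The transgenes were checked first. Pebp1 was at 16371, 15967 and 16257 TPM (transcripts per 1e6, a level that accounts for transcript length) in the Tg-RKIP hearts, between 316 and 327 TPM in the Tg-GRK2-labelled libraries and between 321 and 330 TPM in the FVB hearts. Grk2 was at 26.4, 24.9 and 30.5 TPM in the Tg-GRK2-labelled libraries and at 27.9, 25.9 and 27.4 TPM in FVB. The label Tg-GRK2 was thus not matched by a higher Grk2 level, and a transgene sequence that differs from the mouse gene was not analysed here. In Tg-RKIP Grk2 was at 37.8, 34.6 and 36.5 TPM. On this scale 64.3% of all genes were higher in Tg-RKIP than in FVB without overlap of the libraries. The share of reads on mitochondrially encoded genes was 11.7% ± 0.156 (SD, n = 3) in Tg-RKIP, 22.6% ± 0.299 in the Tg-GRK2-labelled libraries and 23.1% ± 0.158 in FVB. On the scale of scaled counts described below, 6 of 6 fibroblast, 5 of 5 macrophage and 5 of 5 adipocyte genes were higher in Tg-RKIP than in FVB, with summed fibroblast markers at 2228 to 2231 TPM against 858 to 891 TPM, summed macrophage markers at 600.0 to 614 TPM against 238 to 245 TPM and summed adipocyte markers at 914 to 940 TPM against 595 to 624 TPM. Of 5 endothelial markers 3 were higher and 2 lower, and of 4 smooth muscle markers 3 were higher and 1 lower. 5 of 6 cardiomyocyte markers were lower on that scale, while their summed TPM of 43542 to 44432 in Tg-RKIP lay around the 43884 to 44296 of FVB. Airway markers summed to 55.2 to 57.6 TPM in Tg-RKIP, 138 to 146 TPM in the Tg-GRK2-labelled libraries and at most 0.0184 TPM in FVB. The part of other cell types in the results below was not tested, and in whole hearts fewer cells of a type and less RNA per cell cannot be told apart.

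Reads of Araf, Mapk3 and Braf were assigned to transcripts that differ in their reading frame, and the sequences that set these transcripts apart are shown first because the transcript values below refer to them. Positions are those of the deposited tables (GRCm39 per the submitters' processing notes), and bases were read by transcript ID from GENCODE release M21, whose transcript lengths equal the deposited ones. Araf_8 (ENSMUST00000120356) shares its coding exons with the full-length Araf_6 (ENSMUST00000001155) up to the end of a 99-base exon of Araf_6 on the X chromosome and then reads on into the intron, where the open reading frame ends at once. In the pair below the shared bases are in lower case, and the capitals are the last coding base and stop codon of Araf_8 (chrX:20718268-20718271, plus strand) and the first bases of the next exon of Araf_6 (chrX:20719557-20719560).
Araf_8: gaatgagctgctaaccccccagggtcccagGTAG
Araf_6: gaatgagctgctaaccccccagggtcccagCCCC
Araf_8 therefore has 186 codons and Araf_6 has 604. Mapk3_7 (ENSMUST00000091328) begins inside the first intron and lacks the first exon of Mapk3_5 (ENSMUST00000057669), which holds the start codon of the 380-codon ERK1 reading frame, while Mapk3_7 has 265 codons. In the next sequence the 173 capitals are the coding bases of that first exon (chr7:126358818-126358990, plus strand, 74.0% G or C), followed by the first bases of the second exon.
Mapk3_5: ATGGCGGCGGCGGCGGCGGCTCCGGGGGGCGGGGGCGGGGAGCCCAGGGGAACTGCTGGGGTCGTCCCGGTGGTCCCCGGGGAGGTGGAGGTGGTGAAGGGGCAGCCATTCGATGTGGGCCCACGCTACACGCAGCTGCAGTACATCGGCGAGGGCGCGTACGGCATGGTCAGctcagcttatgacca
Braf_5 (ENSMUST00000101497, 750 codons, annotated without a start codon) differs from Braf_4 (ENSMUST00000002487, 804 codons) at its ends and in several exons. A pair of internal coding exons of Braf_4 that Braf_5 lacks is given in capitals with the flanking coding bases, as read on the minus strand at chr6:39625755-39625790 and chr6:39623659-39623778.
Braf 36-base exon: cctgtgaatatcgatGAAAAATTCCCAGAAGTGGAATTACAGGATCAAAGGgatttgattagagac
Braf 120-base exon: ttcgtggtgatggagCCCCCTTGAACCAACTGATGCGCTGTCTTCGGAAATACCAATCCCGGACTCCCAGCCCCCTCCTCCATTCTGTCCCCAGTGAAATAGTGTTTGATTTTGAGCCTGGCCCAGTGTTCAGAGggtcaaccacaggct

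Mapk3 (ENSMUSG00000063065, chr7:126358773-126364991, plus strand), which encodes ERK1, showed the largest change of the 7 genes between Tg-RKIP and FVB hearts. It was at 73.3, 69.6 and 73.9 TPM in Tg-RKIP, at 32.7, 30.6 and 33.9 TPM in FVB and at 36.5, 36.3 and 35.6 TPM in the Tg-GRK2-labelled libraries. The Tg-RKIP libraries lie far above the other groups, and the Tg-GRK2-labelled libraries lie just above those of FVB. In read counts scaled by TMM (a factor per library that assumes that most genes keep their level), Mapk3 stood at 1964 ± 65.5 (SD, n = 3) in Tg-RKIP and 1184 ± 59.9 in FVB, a log2 fold change of 0.73 (SE 0.037, adjusted p 1e-13 in edgeR's quasi-likelihood test). It was the only one of the 7 genes that also passed a test against a fold change of 1.5, which 3665 of all 15504 genes passed. Its log2 fold change lay above that of 84.4% of all genes tested. Against the Tg-GRK2-labelled libraries the log2 fold change was 0.62 (SE 0.037, adjusted p 1.2e-12), and between these and FVB it was 0.11 (SE 0.040, adjusted p 0.0503), just short of the threshold of 0.05.

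In all, 5 of the 7 genes passed the edgeR threshold between Tg-RKIP and FVB, 4 of them higher and 1 lower. Of all 15504 genes tested, 73.9% passed it, 36.8% higher and 37.1% lower, so that the count of cascade genes is near the share of all genes. In the comparison of Tg-RKIP with the Tg-GRK2-labelled libraries, 6 of the 7 passed (5 higher, 1 lower) beside 74.5% of all genes (37.9% higher, 36.6% lower). Between these libraries and FVB 1 of the 7 passed, lower, beside 24.5% of all genes (12.2% in each direction). The first and the last of these comparisons share the FVB libraries, and the first and the second share the Tg-RKIP libraries.

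**Figure D1:**
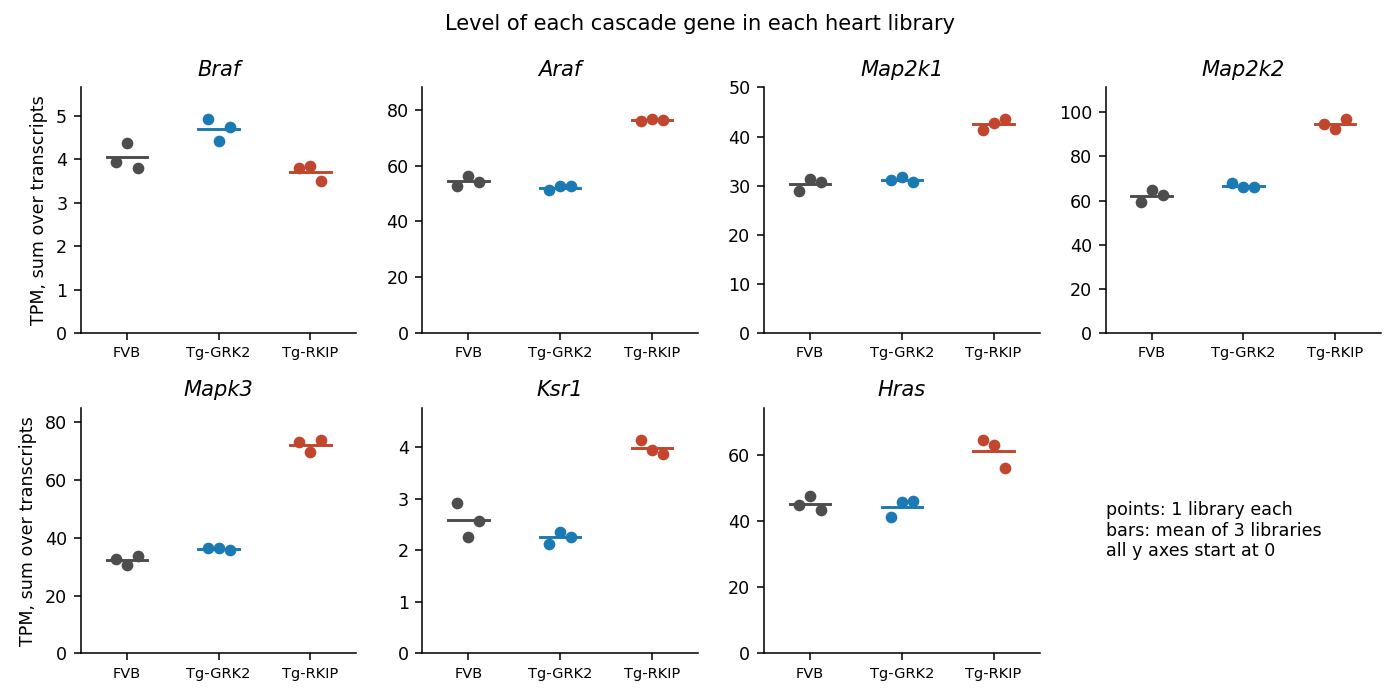
Level of the 7 cascade genes in TPM summed over the transcripts of each gene (y axes, all from 0) in the FVB, Tg-GRK2 and Tg-RKIP libraries; points are libraries and bars are means of 3. The Tg-RKIP points of every gene except Braf lie above all other libraries, and those of Mapk3 lie between 69.6 and 73.9 TPM against 30.6 to 33.9 TPM in FVB.

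The MEK genes rose by less than Mapk3. Map2k2 (MEK2; ENSMUSG00000035027, chr10:80941749-80969809, plus strand) was at 94.8, 92.6 and 96.9 TPM in Tg-RKIP, at 59.2, 64.8 and 62.4 TPM in FVB and at 68.0, 65.9 and 66.3 TPM in the Tg-GRK2-labelled libraries. Its TMM-scaled counts were 2464 ± 76.9 (SD, n = 3) in Tg-RKIP and 2132 ± 91.7 in FVB, with a log2 fold change of 0.21 (SE 0.032, edgeR adjusted p 6.31e-06). Map2k1 (MEK1; ENSMUSG00000004936, chr9:64093052-64160913, minus strand) was at 41.3, 42.7 and 43.5 TPM in Tg-RKIP, at 28.9, 31.3 and 30.7 TPM in FVB and at 31.1, 31.9 and 30.7 TPM in the Tg-GRK2-labelled libraries. The Tg-RKIP libraries again lie above the rest on this scale. After TMM scaling the difference of Map2k1 from FVB was small, at a log2 fold change of 0.10 (SE 0.033, edgeR adjusted p 0.0111), and the call was lost without Tg-RKIP replicate 3 (0.08, adjusted p 0.0558) or without FVB replicate 1 (0.07, adjusted p 0.0823). Neither MEK gene passed the threshold between the Tg-GRK2-labelled libraries and FVB, with adjusted p of 0.196 for Map2k2 and 0.813 for Map2k1 in edgeR.

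The 2 RAF genes described here are Braf and Araf. Braf (ENSMUSG00000002413, chr6:39580171-39702397, minus strand), the RAF kinase with the highest basal activity, was at 3.79, 3.85 and 3.51 TPM in Tg-RKIP, at 3.95, 4.39 and 3.8 TPM in FVB and at 4.92, 4.41 and 4.75 TPM in the Tg-GRK2-labelled libraries. The Tg-RKIP and FVB libraries overlap in TPM. In TMM-scaled counts they did not: Braf was at 562, 561 and 532 in Tg-RKIP against 689, 717 and 687 in FVB, a log2 fold change of -0.34 (SE 0.046, edgeR adjusted p 1.02e-06). The direction turned when libraries were scaled to their total reads (0.036, adjusted p 0.481), and limma on log2(TPM + 0.1) gave -0.12 (adjusted p 0.139). Araf (ENSMUSG00000001127, chrX:20664053-20726758, plus strand), a RAF kinase with weak kinase activity, was at 76.2, 76.7 and 76.3 TPM in Tg-RKIP, at 52.8, 56.2 and 54.3 TPM in FVB and at 51.2, 52.6 and 52.7 TPM in the Tg-GRK2-labelled libraries. After TMM scaling Araf had a log2 fold change of 0.02 from FVB (SE 0.032, edgeR adjusted p 0.548), while scaling to total reads or to reads of nuclear genes gave 0.40 and 0.20, both past the threshold. Between the Tg-GRK2-labelled libraries and FVB, Araf was the gene that passed (-0.10, SE 0.033, adjusted p 0.0273), and without replicate 1 or replicate 2 of the Tg-GRK2-labelled libraries, or without FVB replicate 2, it did not (adjusted p 0.0579, 0.106 and 0.194).

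Hras (ENSMUSG00000025499, chr7:140769018-140773918, minus strand), a GTPase upstream of the RAF kinases, was at 64.5, 62.8 and 56.0 TPM in Tg-RKIP, at 44.8, 47.5 and 43.4 TPM in FVB and at 41.1, 45.9 and 46.0 TPM in the Tg-GRK2-labelled libraries. On the TMM scale Hras was at 971 ± 29.3 (SD, n = 3) in Tg-RKIP and 1018 ± 20.6 in FVB, a log2 fold change of -0.07 (SE 0.037, edgeR adjusted p 0.113), and it turned to 0.31 with total reads, 0.11 with nuclear reads and 0.43 in limma on log2(TPM + 0.1), all 3 past the threshold. Ksr1 (ENSMUSG00000018334, chr11:78904266-79037233, minus strand), the scaffold, was at 4.14, 3.95 and 3.87 TPM in Tg-RKIP, at 2.91, 2.25 and 2.57 TPM in FVB and at 2.12, 2.36 and 2.26 TPM in the Tg-GRK2-labelled libraries. Its log2 fold change from FVB was 0.22 (SE 0.077, edgeR adjusted p 0.0161), but DESeq2 gave an adjusted p of 0.0556, and the call was lost without FVB replicate 2 (0.14, adjusted p 0.127) or FVB replicate 3 (0.18, adjusted p 0.0745). Ksr1 was also higher in Tg-RKIP than in the Tg-GRK2-labelled libraries (0.44, SE 0.078, edgeR adjusted p 2.99e-05).

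The scaling matters for all of these values, because the median log2 fold change of all genes between Tg-RKIP and FVB was 0.01 with TMM, 0.18 with nuclear reads and 0.38 with total reads. The share of called genes that were higher moved with it, from 49.8% with TMM to 64.8% with nuclear reads, 78.6% with total reads and 82.0% in limma on log2(TPM + 0.1). In TPM, 6 of the 7 genes were higher in Tg-RKIP than in FVB without overlap of the libraries, and none was lower, while of all genes 78.8% did not overlap, 64.3% higher and 14.4% lower. Between Tg-RKIP and the Tg-GRK2-labelled libraries 6 were higher and 1 was lower (78.5% of all genes, 61.6% higher and 16.9% lower), and between these and FVB 3 were higher and 1 was lower (33.8% of all genes, 22.9% higher and 10.8% lower). An exact two-sided permutation test of 3 against 3 libraries cannot go below p = 0.1, which the 6 genes reached, so that it cannot pass 0.05. Among TMM, nuclear reads and total reads, a change of scaling moves the genes and their median together. The place of a gene beside the median hardly depends on which of these is used. It did differ in limma on log2(TPM + 0.1), where the median was 0.428, Hras was at 0.431 and Araf at 0.489 (SE 0.034). With TMM, Mapk3, Map2k2, Map2k1 and Ksr1 had values above the median of all genes and Braf had one below it. Hras, at -0.07 (SE 0.037), was also below the median but did not pass the threshold between Tg-RKIP and FVB. Araf, at 0.02 (SE 0.032), could not be told from the median.

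**Figure D2:**
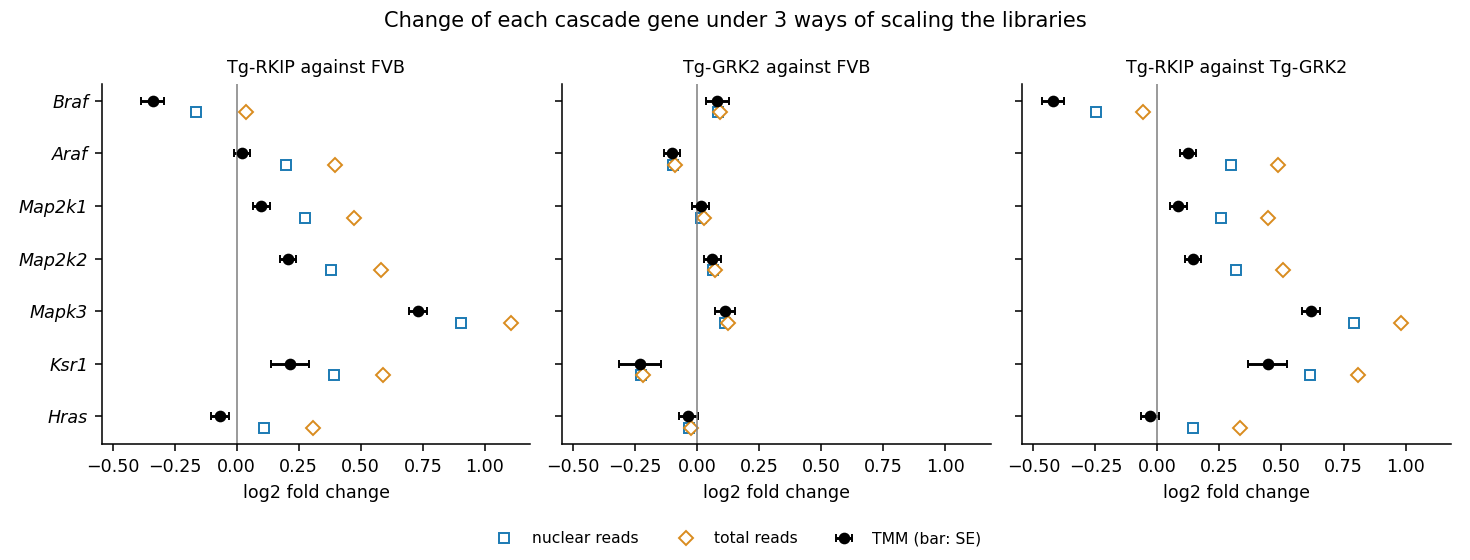
Log2 fold change (x axes) of each gene in the 3 comparisons; filled points are TMM values with their SE, open squares are values scaled to nuclear reads and open diamonds are values scaled to total reads. In the comparisons with Tg-RKIP the 3 scalings shift all 7 genes together, so that Hras and Braf cross 0 against FVB while Mapk3 stays at 0.73 or above.

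Shares of genes within one library do not depend on the scaling, and they were compared for the MEK pair, a comparison chosen after seeing the data. Map2k2 took 69.6%, 68.4% and 69.0% of the summed TPM of Map2k2 and Map2k1 in Tg-RKIP, 67.2%, 67.5% and 67.0% in FVB and 68.6%, 67.4% and 68.3% in the Tg-GRK2-labelled libraries. The means were 69.0% ± 0.602 in Tg-RKIP and 67.2% ± 0.219 in FVB (SD, n = 3), a difference of 1.78 percentage points without overlap, which was 1.83 points in reads in place of TPM and ranged from 1.48 to 2.08 points with each library left out. The exact permutation test between Tg-RKIP and FVB gave p = 0.1, the smallest it can reach. The Tg-GRK2-labelled libraries overlapped with both other groups.

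The order of the 7 genes by TPM in FVB was Map2k2, Araf, Hras, Mapk3, Map2k1, Braf and Ksr1, with means of 62.2, 54.4, 45.2, 32.4, 30.3, 4.04 and 2.58 TPM. Mapk3 and Map2k1 were the neighbours whose FVB libraries overlapped. The Tg-GRK2-labelled libraries had the same order, without overlap. In Tg-RKIP Mapk3 stood above Hras (72.3 against 61.1 TPM) and Ksr1 above Braf (3.99 against 3.71 TPM), again without overlap. These levels rest on how reads were divided among transcripts of different length, for which the method is not given in the sources used here.

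Of the 50 transcripts, 17 had a mean of at least 1 TPM over the 9 libraries and 10 had no read in any. Araf_8, the transcript with 186 codons, was at 60.6, 61.2 and 61.1 TPM in Tg-RKIP, at 42.4, 44.9 and 42.2 TPM in FVB and at 39.03, 41.7 and 41.6 TPM in the Tg-GRK2-labelled libraries. The full-length Araf_6 was at 9.43, 9.76 and 10.9 TPM in Tg-RKIP against 8.41, 9.27 and 8.25 TPM in FVB. Araf_8 thus held 74.8% ± 0.235 (SD, n = 3) of the Araf reads in Tg-RKIP, 71.9% ± 0.647 in FVB and 70.3% ± 2.52 in the Tg-GRK2-labelled libraries, and 861 of its 1520 bases lie beyond the shared exon. Of the other Araf transcripts with at least 1 TPM, Araf_7 was between 0.571 and 1.83 TPM, and Araf_10 was listed at 0 in 3 libraries and reached 3.39 TPM.

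The transcript without the first coding exon also carried most Mapk3 reads. Mapk3_7 was at 71.6, 66.6 and 71.3 TPM in Tg-RKIP, at 32.2, 27.4 and 31.0 TPM in FVB and at 34.0, 32.1 and 30.2 TPM in the Tg-GRK2-labelled libraries. Mapk3_5, with the whole ERK1 reading frame, was between 0.52 and 5.47 TPM over the 9 libraries. 134 of the 1716 bases of Mapk3_7 are not in Mapk3_5, so that most of its reads could come from either. Mapk3_7 had a log2 fold change of 0.83 from FVB (SE 0.068, adjusted p 4.33e-05 in edgeR over all transcripts) and Mapk3_5 one of -0.48 (SE 0.64, adjusted p 0.629), and the test of a difference between the transcripts did not pass (edgeR diffSpliceDGE adjusted p 0.533).

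At transcript level, 7 of 22 tested transcripts of the cascade genes (31.8%) passed the edgeR threshold between Tg-RKIP and FVB, 5 higher and 2 lower, beside 34% of the 34991 transcripts tested (15% higher, 19% lower), which is near the same share. Against the Tg-GRK2-labelled libraries 6 of the 22 passed, 4 higher and 2 lower, beside 37% (17% higher, 20% lower). Apart from Mapk3_7 the 7 were Map2k1_4 (0.14, adjusted p 0.00818), Map2k2_4 (0.61, adjusted p 0.00597), Map2k2_5 (0.19, adjusted p 0.00948), Araf_8 (0.12, adjusted p 0.0480), Braf_4 (-0.24, adjusted p 0.00391) and Braf_5. Braf_5, named after its values were seen because its mean was 0.704 TPM, had 5, 6 and 3 reads in Tg-RKIP, 31, 44 and 25 reads in FVB and 64, 36 and 63 reads in the Tg-GRK2-labelled libraries. Its log2 fold change from FVB was -3.13 (SE 0.386, edgeR adjusted p 0.00044), and its share of Braf reads was 0.722% ± 0.156 (SD, n = 3) in Tg-RKIP against 5.28% ± 0.994 in FVB, without overlap. Braf_4, which carries the 36-base and 120-base exons shown above, held 98.8% ± 0.153 and 94.4% ± 1.28 of the reads.

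Whether the transcripts of one gene changed by different amounts was tested with edgeR's diffSpliceDGE. Between Tg-RKIP and FVB none of the 6 cascade genes with at least 2 tested transcripts passed, beside 18.9% of 8858 genes, and 1 of the 6, Braf, had an unadjusted p under 0.05 (p 0.0268, adjusted p 0.113). Without FVB replicate 1, Map2k1 and Ksr1 passed (adjusted p 0.0141 and 0.0209), and without FVB replicate 3, Araf did (adjusted p 0.0253). Between Tg-RKIP and the Tg-GRK2-labelled libraries, Braf passed (adjusted p 0.0362) beside 23.4% of genes. Hras passed in both comparisons with the Tg-GRK2-labelled libraries (adjusted p 0.00328 against FVB, beside 2.11% of genes, and 0.00046 against Tg-RKIP), through Hras_7, a transcript marked for nonsense-mediated decay. Hras_7 had 0 reads in all 3 Tg-GRK2-labelled libraries and in FVB replicate 1, 127 and 135 reads in the other FVB libraries and 59, 5 and 143 reads in Tg-RKIP, so that it also ranged from 0 to 135 reads within FVB.

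Ksr1_2 was as uneven within groups, with 0 reads in FVB replicates 2 and 3 and in replicate 1 labelled Tg-GRK2 and between 113 and 231 reads in the others. Ksr1_1 held 35.6 to 47.99% of the Ksr1 reads in Tg-RKIP and 49.6%, 99.6% and 99.1% in FVB, and its log2 fold change was -0.67 (SE 0.289, edgeR adjusted p 0.119) where the sum over Ksr1 transcripts was 0.22. Among the main Hras transcripts, Hras_4 was between 15.2 and 28.7 TPM and Hras_5 between 9.26 and 17.7 TPM over the 9 libraries, Hras_6 between 1.89 and 18.3 TPM and Hras_1, with a retained intron, between 1.05 and 2.09 TPM, and none passed between Tg-RKIP and FVB. The spread between replicates was far larger for transcripts (biological coefficient of variation 58.7%) than for gene sums (2.86%).

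**Figure D3:**
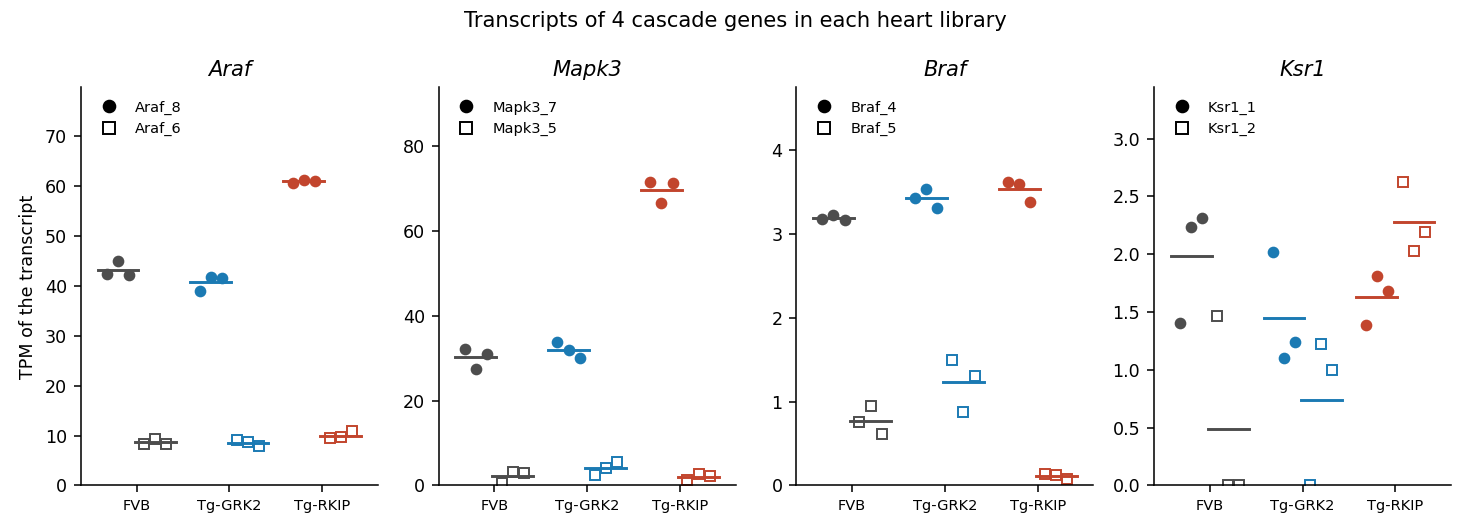
TPM (y axes) of 2 transcripts each of Araf, Mapk3, Braf and Ksr1 by group; filled circles and open squares are libraries and bars are means of 3. Araf_8 and Mapk3_7 lie above the full-length Araf_6 and Mapk3_5 in every library, and Ksr1_2 is at 0 in 3 libraries.

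The span of Braf overlaps that of Ndufb2, a subunit of mitochondrial complex I on the other strand, by 146 bases, and Ndufb2 had between 3016 and 3938 reads. Araf overlaps Syn1 by 9 bases (15 to 43 reads), and Gm48855, Uchl4 and Gm11201, which overlap Map2k1 or Ksr1, had at most 2 reads. Without strand information reads in such overlaps cannot be told apart.

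The other genes of the pathway were taken from lists of known components, whose values below are TMM-scaled. The GTPases Rras (0.89, SE 0.045, edgeR adjusted p 8.16e-14), Mras (0.42, adjusted p 0.000732), Rras2 (0.36, adjusted p 5.57e-10) and Nras (0.27, adjusted p 3.32e-06), which are relatives of Hras, were higher in Tg-RKIP than in FVB, as log2 fold changes. Rras was at 105, 93.1 and 93.2 TPM in Tg-RKIP against 40.6, 38.4 and 38.4 TPM in FVB, and Nras was at 22.4, 22.2 and 20.4 TPM against 13.5, 12.4 and 13.1 TPM. Neither gene overlapped between these groups. Of all genes, 64.3% were higher in Tg-RKIP than in FVB without overlap in TPM, and 36.8% were called higher with TMM. In the Tg-GRK2-labelled libraries Nras was at 14.3, 13.4 and 12.0 TPM, overlapping with FVB. Ksr2, the relative of Ksr1, had 2 to 7 reads per library and was not tested.

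The counts of the lists that follow stand beside 36.8% higher and 37.1% lower among all genes between Tg-RKIP and FVB with TMM, and beside 62.6% higher and 17.1% lower with total reads. Of 16 tested adaptors, exchange factors and other genes upstream of RAS, 11 were lower, 4 were higher and 1 did not pass with TMM, with a median of -0.22 beside 0.01 over all genes, whereas with total reads 6 were lower and 8 higher, with a median of 0.15 beside 0.38. Ptpn11, the phosphatase SHP2 that promotes RAS activation, was lower (-0.75, SE 0.022, edgeR adjusted p 2.86e-18), as was the exchange factor Rasgrf2 (-0.86, adjusted p 3.14e-10), whereas the adaptor Shc1 (0.39, adjusted p 5.32e-09) and Rasgrp4 (0.63, SE 0.226, adjusted p 0.0170) were higher. The call of Rasgrp4 was lost without Tg-RKIP replicate 2 or 3 or FVB replicate 1 (adjusted p 0.0631, 0.0678 and 0.125). Of 9 tested genes of RAS inactivation 4 were higher and 4 were lower (7 and 1 with total reads), among them the GTPase-activating proteins Rasal3 (1.04, adjusted p 0.00411, but 0.233 in limma on log2(TPM + 0.1)) and Rasa4 (0.70, adjusted p 1.51e-06) on one side and Rasal2 (-0.61, adjusted p 1.79e-11) and Nf1 (-0.39, adjusted p 5.70e-09), which turned to 0.17 in limma on log2(TPM + 0.1), on the other.

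Of 28 regulators and scaffolds of RAF, MEK and ERK, 16 were higher and 7 were lower with TMM, with a median of 0.11, and 25 were higher and 2 lower with total reads, with a median of 0.49 beside 0.38 over all genes. Pak3, a p21-activated kinase, had the largest change (3.65, SE 0.143, edgeR adjusted p 8.50e-16), followed by Pea15a, which holds ERK in the cytoplasm (1.17, SE 0.025, adjusted p 1.12e-20). Cnksr3 (-0.50, adjusted p 1.34e-10, but 0.065 in limma on log2(TPM + 0.1)) and Ppp1cb, the catalytic phosphatase subunit that acts with SHOC2 on RAF (-0.49, adjusted p 3.66e-16, but -0.064 with adjusted p 0.0884 in that limma fit), were lower. With total reads Ppp1cb was at -0.11. Among kinases and transcription factors that ERK phosphorylates, 8 of 12 were lower and 2 were higher, with a median of -0.24, whereas with total reads 4 were lower and 8 higher, with a median of 0.14. Among them Rps6ka6 (-1.71, SE 0.293, adjusted p 2.06e-05) and Rps6ka5 (-0.64, adjusted p 1.69e-07) fell, and Rps6ka1 (0.37, adjusted p 3.96e-05) and Elk3 (0.18, adjusted p 0.000154) rose.

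**Figure D4:**
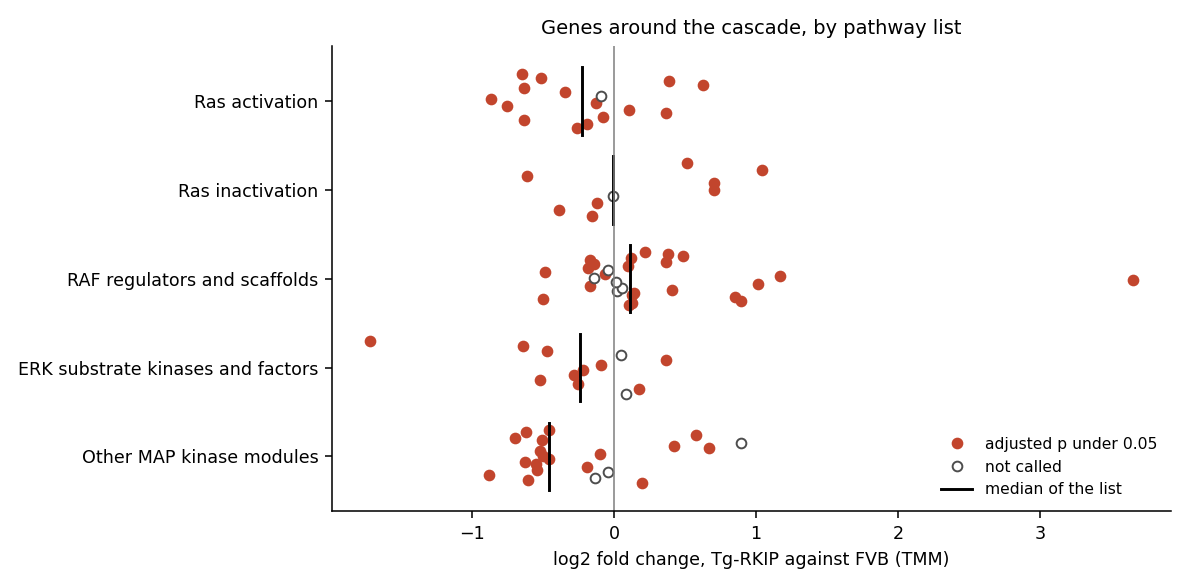
Log2 fold change between Tg-RKIP and FVB after TMM scaling (x axis) of each tested gene of 5 pathway lists (rows); filled points passed the edgeR threshold, open points did not, and black bars are list medians. Pak3 at 3.65 (16 to 377 reads per library) and Rps6ka6 at -1.71 (9 to 33 reads) lie farthest out, and the median of the other MAP kinase modules lies at -0.46.

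Between the Tg-GRK2-labelled libraries and FVB, Rras2 was higher (0.18, SE 0.031, edgeR adjusted p 0.000215). Of the 28 regulators 2 were higher and 8 were lower, and of the 16 genes upstream of RAS 4 were higher and 1 was lower, beside 12.2% of all genes in each direction.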

How the data were processed

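Hearts were sequenced as single reads of 50 bases. The authors deposited whole-number read counts per Ensembl transcript for 9 libraries in one table, and a TPM value per transcript in one file per library. The genome build is GRCm39 per the submitters' processing notes; the aligner, the counter and its use of strand are not given in the sources used here. Recomputing TPM from reads and transcript lengths gave the deposited TPM within 5.5e-06. Reads and TPM were summed by gene name, and no row lacked a gene name. Groups came from the sample titles.

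Genes kept by filterByExpr (15504) were tested with edgeR 4.0.16 (R 4.3.3; TMM, quasi-likelihood test, one fit of 3 groups, Benjamini-Hochberg adjustment over all genes, threshold 0.05), and 34991 transcripts likewise. Alternatives used DESeq2 1.42.0 and limma 3.58.1, other scalings and filters, a test against a fold of 1.5 and each library left out. Exact permutation tests used scipy. The gene fits and the test of unequal transcript change were tested on simulated data. The simulated spread between replicates was near that of the gene sums, far below that of the transcripts (biological coefficient of variation 58.7%). The transcript tests were therefore not checked at their own spread. Library pairs of a group differed by 1.37 to 1.56 times counting noise, so none was counted as a copy of another library. The check cannot show whether libraries shared RNA. The authors give 3 hearts per group, and the spread of the gene sums was small (biological coefficient of variation 2.86%). The labels number the replicates within each group and do not say whether the mice shared a litter or a cage, and p-values measure the spread between these libraries. Intervals are given as SD or SE over 3 libraries.

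The genes and lists were chosen with earlier results of these data known. Named are the 7 genes and their transcripts of at least 1 mean TPM, other RAS and KSR genes, from each list the 2 called genes with the highest and the 2 with the lowest fold change between Tg-RKIP and FVB, the 2 genes most alike to each of the 7, and genes overlapping them. Results for some other genes of the cascade are not reported here.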

Additional observations from a re-analysis of the deposited data

How the results depend on the processing

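Leaving out each library gave 11012 to 11570 called genes between Tg-RKIP and FVB, 3114 to 3773 between the Tg-GRK2-labelled libraries and FVB and 11156 to 11658 between Tg-RKIP and the Tg-GRK2-labelled libraries. Of the 7 cascade genes it left 4 to 5, 0 to 2 and 5 to 6 called, of their transcripts 6 to 7, of their genes with unequal transcript change 0 to 2, and of those higher in TPM 6 in each case. The test against a fold of 1.5 called 3665, 155 and 3867 genes and 1, 0 and 0 of the 7. Between the Tg-GRK2-labelled libraries and FVB, 2 of the 7 (Araf and Mapk3) were called with DESeq2 size factors, nuclear reads, no filter, 1 CPM in 3 libraries or 2 groups alone, Mapk3 in place of Araf with total reads, and 0 with DESeq2 or limma on log2(TPM + 0.1), where limma called 2191 genes and, on log2(TPM + 1), 2232. The cause of these differences was not tested.

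Directions turned for these genes between Tg-RKIP and FVB. Scaled to total reads, Braf was 0.036 and Hras 0.31 on the log2 scale, and scaled to nuclear reads Hras was 0.11. In limma on log2(TPM + 0.1) Hras was 0.43, Nf1 0.17 and Cnksr3 0.065, and on log2(TPM + 1) they were 0.42, 0.15 and 0.061. Between Tg-RKIP and the Tg-GRK2-labelled libraries, Hras was 0.33 (total reads), 0.14 (nuclear reads), 0.46 and 0.45 (limma). By the most abundant transcript alone, Ksr1 was -0.67 against FVB and -0.17 against the Tg-GRK2-labelled libraries. The log2 ratio of Hras means in Tg-RKIP over FVB was -0.068 in TMM-scaled counts, in place of TPM. The share of calls that were higher went from 50.9% (TMM) to 77.1% (total reads) between Tg-RKIP and the Tg-GRK2-labelled libraries and from 50.0% to 72.0% (limma on log2(TPM + 0.1)) between these and FVB. Map2k1, Ksr1, Araf and Rasgrp4 lost calls without single libraries as given above; between Tg-RKIP and the Tg-GRK2-labelled libraries Map2k1 lost its call without Tg-RKIP replicate 2 or 3 or Tg-GRK2 replicate 1 or 3 (adjusted p 0.0658, 0.110, 0.0710 and 0.0912), with DESeq2 (0.115) or with no filter (0.0708). Between the Tg-GRK2-labelled libraries and FVB, Mapk3 passed without Tg-RKIP replicate 2 or 3 or FVB replicate 3 (adjusted p 0.0421, 0.0485 and 0.0182) and Ksr1 without FVB replicate 2 (0.0237). Shares within a library, by TPM or by reads and without each library, were chosen after seeing the data.

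Replicate numbers did not pair the libraries: deviations of same-numbered libraries correlated at r of -0.04 to 0.05 (9 pairs) and of others at -0.05 to 0.04 (18 pairs). With the replicate block, 11401, 3660 and 11491 genes and 5, 2 and 6 of the 7 were called, the added one being Mapk3 (adjusted p 0.0393). With 3 libraries a group, transcript shares resting on few reads stay imprecise.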

Other observations

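Genes of other MAP kinase modules were also counted. Of 21 tested genes of the p38, JNK, ERK5 and ERK3 modules 14 were lower in Tg-RKIP, 4 were higher and 3 did not pass against FVB in edgeR, beside 37.1% lower and 36.8% higher among all genes, with a median log2 fold change of -0.46 beside 0.01. With total reads 12 were lower and 9 higher, beside 17.1% and 62.6% of all genes (median -0.085 beside 0.38). Map2k6, a kinase of p38, was lower (-0.88, SE 0.087, adjusted p 7.35e-09), as was Mapk6, which encodes ERK3 (-0.69, SE 0.045, adjusted p 8.07e-12), whereas Mapk11 (p38 beta; 0.67, SE 0.156, adjusted p 0.000643) and Mapk7, which encodes ERK5 (0.58, SE 0.084, adjusted p 2.64e-06), were higher. Between the Tg-GRK2-labelled libraries and FVB, 3 of the 21 were higher and 2 were lower, beside 12.2% of all genes in each direction.

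As a description over the 9 libraries, which share group and depth, the log2 levels most alike to Mapk3 were those of Tbc1d10b (Pearson r 0.999) and Kcnj14 (0.997), and those most alike to Braf were Arfgef2 (0.997) and Sned1 (0.995). For Map2k2 they were Gatd1 and Tmem160 (0.986 each), for Ksr1 Sp140 (0.979) and Aaas (0.969), for Araf Fcf1 (0.969) and Rpl24 (0.967), for Map2k1 Slc35b3 (0.963) and Ccpg1os (0.958), and for Hras Zbtb14 (0.955) and Gm12655 (0.951).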
